A study of Homo sapiens with 12 samples.

Results

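The 9 genes described here encode factors of nonsense-mediated mRNA decay (NMD): UPF1, UPF2, UPF3A, UPF3B, SMG1, SMG5, SMG6, SMG8 and SMG9. They were picked by gene symbol, and the rule uses no measured value, although the group was proposed with earlier results of these data known. All 9 were present among the 25268 gene symbols measured, and all 9 were among the 14676 genes expressed highly enough to be tested, with a mean of at least 0.5 FPKM over the libraries. FPKM counts sequenced fragments per unit of transcript length and of library size, so levels can be compared between genes of a library.

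NMD is a cytoplasmic surveillance pathway that removes mRNAs on which a ribosome terminates too early. UPF1, an RNA helicase, is recruited to the terminating ribosome, and UPF2 and the UPF3 proteins connect it with exon junction complexes left downstream by splicing. The SMG1 kinase, held in check by SMG8 and SMG9, then phosphorylates UPF1, and SMG5 and SMG6 bind the phosphorylated form and bring about decay of the mRNA. The pathway needs translation, and several of its own factors are encoded by mRNAs that NMD itself degrades.

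The libraries came from HEK293, an established human embryonic kidney line, into which 2 μg of DNA was transiently transfected, either a vector for RBMX (hnRNP G, an RNA-binding protein of the splicing machinery) with a His-HA tag or the empty vector. Lysates of 3 biological replicate cultures per plasmid, all treated with cycloheximide, were spread over a 15-50% sucrose gradient, and from each culture polysomal RNA and total RNA were sequenced, which gave 12 libraries in 4 groups of 3. The total RNA was pooled from a share of each gradient fraction, so both libraries of a culture come from 1 lysate. Expression was transient, and no selection of the transfected cells is described.

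The level of RBMX was checked in each library before the NMD factors. It was 133 ± 22.2 FPKM (SD, n = 3) in total and 127 ± 34.3 FPKM in polysomal RNA of control cells, against 1755 ± 307 and 1189 ± 130 FPKM in RBMX cells, with no overlap, although fragments shared with its near-identical copy RBMXL1 and those from the plasmid are not separated in these values. FPKM summed over genes ranged from 817528 to 1903317 per library, and the number of fragments behind them and any scaling between libraries are unknown, so that differences between libraries rest on the values as given. All 7 HEK293 markers examined were detected in each library, from PAX2 at 2.49 to 8.80 FPKM to VIM at 217 to 577 FPKM. Of 7 markers of other cell types, 6 stayed at or under 0.226 FPKM (INS was listed at 0 in all libraries) and COL1A1 lay between 3.14 and 8.61 FPKM. Control culture 3 stood apart in how far genes lay from the mean of the other libraries of the same group. On the log2 scale, 13.8% of the tested genes in its total and 20.4% in its polysomal library lay more than 0.5 from that mean. The share was 2.82 to 5.81% in the other 10 libraries. Because this culture was also low for most NMD factors, their differences between RBMX and control cells are given with and without it. Those of the wider gene lists are given with all cultures only.

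The NMD factors were expressed in all 12 libraries at moderate levels, and their order was nearly constant. SMG5 was the highest in each group, from 49.9 ± 1.49 FPKM in control total RNA to 61.7 ± 2.71 FPKM in RBMX polysomal RNA (SD, n = 3). SMG9 was second, followed by UPF1, UPF3B, SMG6, SMG8 and SMG1, while UPF2 and UPF3A were the lowest. In control total RNA the ranges of SMG5 and SMG9 were separate from the next gene, and from UPF1 downward each pair of neighbours overlapped. In RBMX total RNA all neighbours were separate except UPF3A and UPF2 at the low end.

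**Figure D1:**
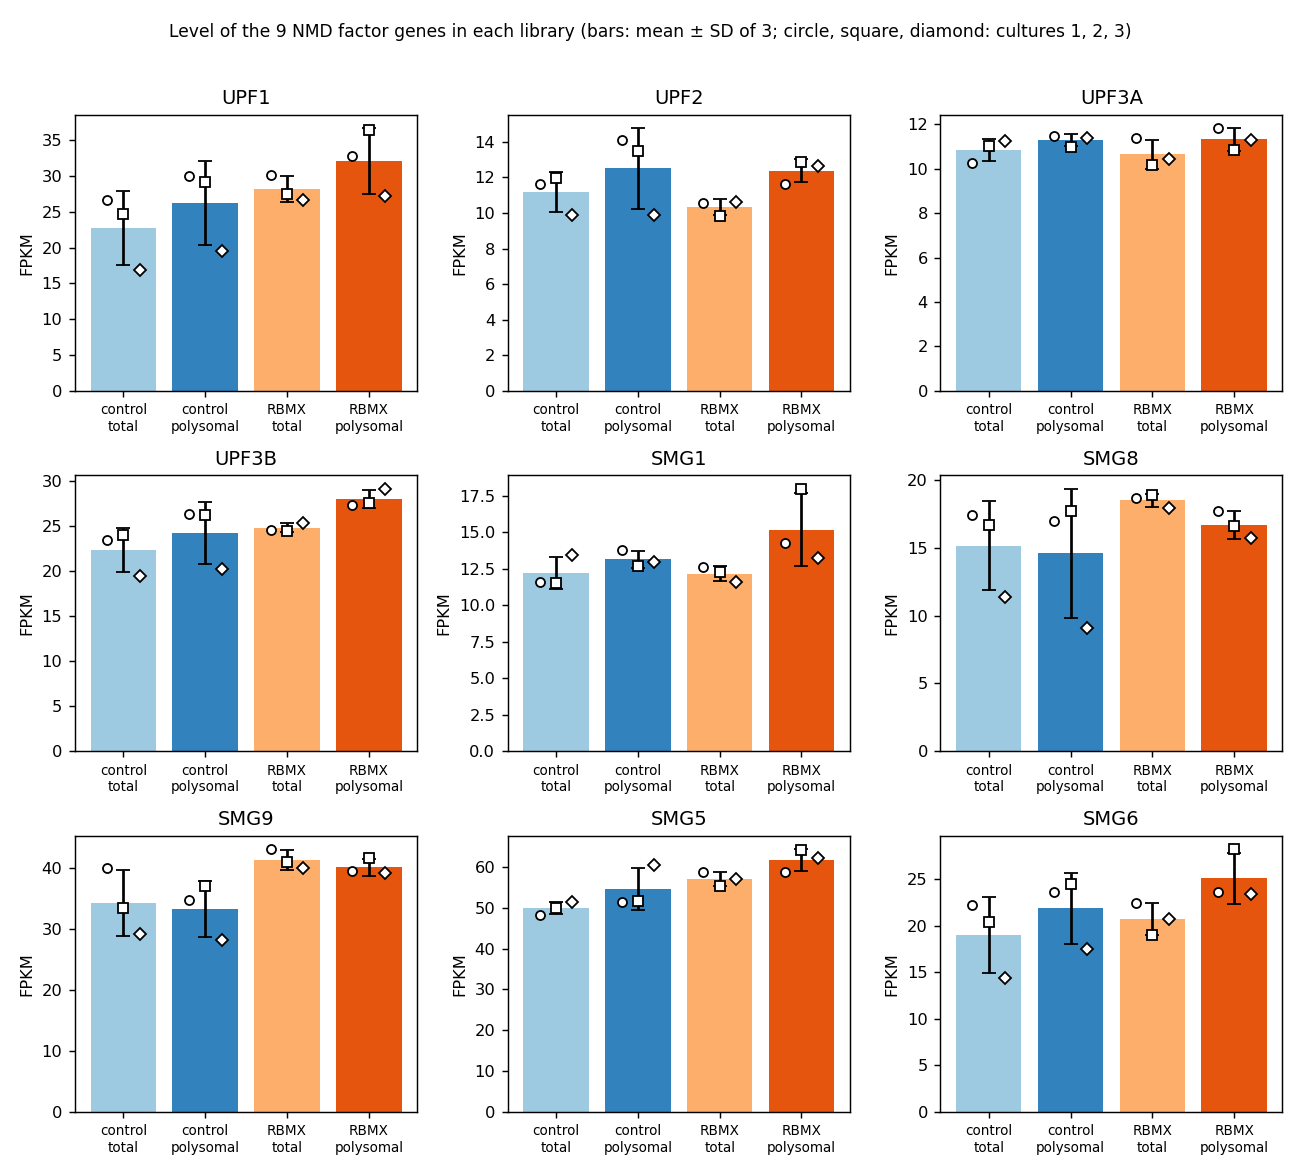
Level of each NMD factor in FPKM (vertical axis, from 0) in the 4 groups of libraries, with bars for the mean, lines for the SD of 3 cultures and symbols for single cultures. Control culture 3 (diamonds over the blue bars) lies lowest in its group for UPF1, UPF2, UPF3B, SMG6, SMG8 and SMG9 in both fractions, while SMG5 is the highest gene throughout.

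The first comparison was between RBMX and control cells, in each fraction on its own. Most factors had a somewhat higher mean in RBMX cells, none by an amount that passed the test. On the log2(FPKM + 1) scale the RBMX minus control difference in total RNA was above 0 for 7 and below 0 for 2, with a median of 0.15, where the median over all tested genes was 0 and 7300 of 14676 genes were above it. None of the 9 passed the adjusted threshold of 0.05 (limma, Benjamini-Hochberg over all tested genes), which 0.164% of all tested genes passed, and 1 of 9 had an unadjusted p under 0.05, against 18.8% of all genes. RBMX libraries lay above all control libraries for 4 of 9 factors (UPF1, UPF3B, SMG5 and SMG8), against 11.9% of all genes, and below for 0, against 15.4%. Without control culture 3 the counts stayed at 7 above and 2 below 0, and the median was 0.068. All 9 differences lay between -0.30 and 0.40, the 5th and 95th percentile of all tested genes. In polysomal RNA all 9 were above 0, 2 of them by less than 0.01, with a median of 0.20, while without control culture 3 the count was 7 above and 2 below (UPF2 and SMG8), with a median of 0.091. Again 0 of 9 passed, against 0.0477% of all genes, and 0 had an unadjusted p under 0.05, against 11.7%. The RBMX libraries lay above the controls for 2 of 9 (UPF3B and SMG9), against 10.0% of all genes, and below for 0, against 12.5%. In bulk RNA a change in the share of cells that express a gene and a change in RNA per cell cannot be told apart.

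**Figure D2:**
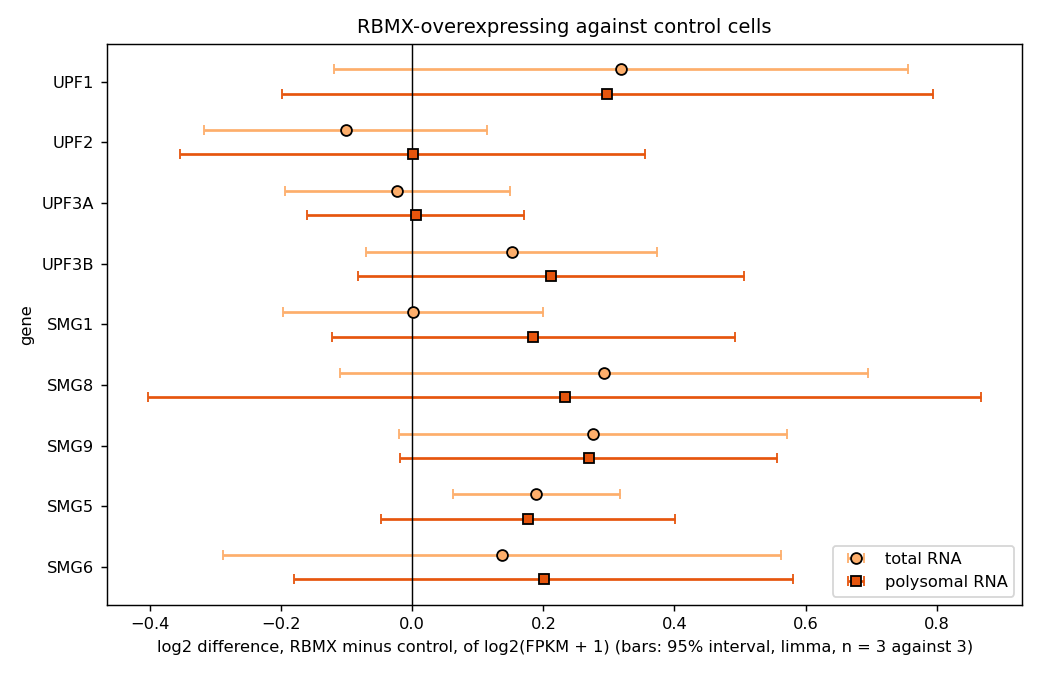
Difference between RBMX and control cells (horizontal axis, log2(FPKM + 1)) for each NMD factor in total RNA (circles) and polysomal RNA (squares), with 95% intervals from limma over 3 against 3 libraries. The interval of SMG5 in total RNA, 0.062 to 0.32, is the only one of 18 that does not include 0.

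UPF1, the helicase at the centre of NMD, lies at chr19:18831938-18868236 on the plus strand (GRCh38, GENCODE v29; 24 exons in its longest coding transcript). It was at 26.6, 24.8 and 16.9 FPKM in the total RNA of control cultures 1 to 3 and at 30.2, 27.5 and 26.7 FPKM in that of RBMX cultures 1 to 3. In polysomal RNA the control cultures gave 30.0, 29.2 and 19.5 FPKM and the RBMX cultures 32.8, 36.4 and 27.3 FPKM. The groups did not overlap in total RNA, where the highest control and the lowest RBMX library were nearly level, and they overlapped in polysomal RNA. The difference between RBMX and control cells was 0.32 ± 0.18 (SE) in total RNA, the largest of the 9 factors with all libraries and no correction, and 0.30 ± 0.20 in polysomal RNA, with adjusted p = 0.380 and 0.558 (limma). Without control culture 3 the differences of UPF1 were 0.13 and 0.11, below those of SMG5, which were then the largest at 0.21 and 0.25.

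UPF2 (chr10:11920022-12043170, minus strand) encodes the adaptor between UPF1 and the UPF3 proteins. Its total RNA values were 11.7, 12.0 and 9.90 FPKM in control and 10.6, 9.82 and 10.6 FPKM in RBMX cultures. Its polysomal values were 14.1, 13.5 and 9.91 FPKM in control and 11.7, 12.9 and 12.7 FPKM in RBMX cultures. All groups overlapped between the plasmids. UPF2 had the lowest RBMX difference of the 9 factors in total RNA, -0.10 ± 0.087 (adjusted p = 0.552, limma), and it was -0.18 without control culture 3. In polysomal RNA it was 0.00074 ± 0.14, and -0.15 without that culture.

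The paralogs UPF3A (chr13:114281584-114305817, plus strand) and UPF3B (chrX:119805311-119852998, minus strand) encode the factors that contact the exon junction complex, of which UPF3B is the stronger activator of NMD. UPF3A was the steadiest factor, with 10.3, 11.0 and 11.2 FPKM in control and 11.4, 10.2 and 10.4 FPKM in RBMX total RNA. Its polysomal values were 11.5, 11.0 and 11.4 FPKM in control and 11.8, 10.8 and 11.3 FPKM in RBMX cultures. The RBMX differences of UPF3A were -0.023 (95% interval -0.19 to 0.15) and 0.0050 (-0.16 to 0.17), the 2 narrowest intervals after that of SMG5 in total RNA, and without control culture 3 they were 0.0011 and 0.013. UPF3B was at 23.5, 24.0 and 19.5 FPKM in control and 24.6, 24.5 and 25.4 FPKM in RBMX total RNA. In polysomal RNA it was at 26.3, 26.2 and 20.2 FPKM in control and 27.4, 27.6 and 29.2 FPKM in RBMX cultures. UPF3B was the only factor whose RBMX libraries lay above all control libraries in both fractions, by 0.15 ± 0.089 in total and 0.21 ± 0.12 in polysomal RNA (adjusted p = 0.408 and 0.494, limma), and by 0.062 and 0.091 without control culture 3.

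The balance of the paralogs was also read as a ratio within each library. UPF3B stood over UPF3A by 2.07 ± 0.29 in control total, 2.15 ± 0.33 in control polysomal, 2.34 ± 0.15 in RBMX total and 2.48 ± 0.15 in RBMX polysomal RNA (SD, n = 3). All groups overlapped, with two-sided exact permutation p of 0.3 and 0.2 between plasmids in total and polysomal RNA and 0.5 and 0.3 between fractions in control and RBMX cells, where 3 against 3 cannot go below 0.1. Within cultures, which pairs the fractions by lysate, the ratio was higher in polysomal RNA in 6 of 6, by 0.0069 to 0.13 on the log2 scale with a median of 0.081. A two-sided exact sign-flip permutation test over the 6 cultures, chosen after seeing the data, gave p = 0.031, the smallest possible (adjusted p = 0.031 over 2 such tests). With all 6 cultures already seen to agree, this p was fixed in advance, and no conclusion is drawn from it. Of all single genes, 16.0% were higher and 16.5% lower in polysomal RNA in 6 of 6 cultures. That share is over levels of single genes, and none was computed for ratios between genes.

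SMG1 (chr16:18804853-18926454, minus strand; 63 exons) encodes the kinase that phosphorylates UPF1. It was at 11.6, 11.5 and 13.4 FPKM in control and 12.6, 12.3 and 11.6 FPKM in RBMX total RNA. In polysomal RNA it was at 13.8, 12.7 and 12.9 FPKM in control and 14.3, 18.0 and 13.2 FPKM in RBMX cultures. The total RNA of both plasmids was level, with a difference of 0.00068 ± 0.080, and in polysomal RNA RBMX culture 2 was the highest of all and the difference was 0.18 ± 0.12 (adjusted p = 0.558, limma), or 0.063 without that library. Control culture 3 was the highest control for SMG1 in total RNA and between the others in polysomal RNA, and without it the differences were 0.068 and 0.17.

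SMG1 has several near-identical partial copies on the same chromosome, so its value is uncertain as far as fragments were shared out among them. Of 7 copies looked for, 5 were listed and 4 were tested. SMG1P7 was the highest, at 2.78 ± 1.03 FPKM in control total and 3.64 ± 0.76 FPKM in RBMX total RNA, and none of the 4 passed the test in any comparison. The summed copies amounted to 0.407 ± 0.069 of the SMG1 value in control total and 0.319 ± 0.11 in control polysomal RNA, and to 0.488 ± 0.028 and 0.333 ± 0.015 in RBMX total and polysomal RNA (SD, n = 3). In RBMX cells the ratio was lower in polysomal than in total RNA without overlap, by -0.55 on the log2 scale (exact permutation p = 0.1, the smallest possible), and the plasmids overlapped in both fractions. From total to polysomal RNA of these cells, mean SMG1P7 went from 3.64 to 2.85 FPKM and SMG1P2 from 0.828 to 0.509 FPKM. SMG1P1, SMG1P3 and SMG1P5 had higher means in polysomal RNA, and SMG1 itself went from 12.2 to 15.2 FPKM. Within cultures the ratio was lower in polysomal RNA in 6 of 6, by -0.54 to -0.58 in RBMX and by -0.14 to -0.65 in control cultures. The same exact sign-flip permutation test gave p = 0.031 (adjusted p = 0.031 over 2 tests), again fixed once all 6 were seen to agree.

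SMG8 (chr17:59209400-59215247, plus strand) and SMG9 (chr19:43727992-43754990, minus strand) encode the subunits that bind SMG1 and restrain its kinase. SMG8 was at 17.4, 16.7 and 11.4 FPKM in control and 18.7, 18.9 and 18.0 FPKM in RBMX total RNA. Its polysomal values were 17.0, 17.7 and 9.08 FPKM in control and 17.7, 16.6 and 15.7 FPKM in RBMX cultures. The polysomal value of control culture 3 was little over 9 FPKM, and all other values of SMG8 in polysomal RNA lay close together. The RBMX difference of SMG8 was 0.29 ± 0.16 in the total and 0.23 ± 0.25 in the polysomal libraries (adjusted p = 0.382 and 0.700, limma), and without control culture 3 these were 0.11 and -0.056.

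SMG9 was at 39.98, 33.4 and 29.2 FPKM in control and 43.1, 40.9 and 39.9 FPKM in RBMX total RNA. In polysomal RNA it was at 34.7, 37.1 and 28.1 FPKM in control and 39.4, 41.7 and 39.1 FPKM in RBMX cultures. Its groups overlapped narrowly in total RNA and were separate in polysomal RNA. The differences were 0.28 ± 0.12 and 0.27 ± 0.12 (adjusted p = 0.287 and 0.425, limma), and 0.17 and 0.16 without control culture 3.

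SMG5 (chr1:156249224-156282825, minus strand) encodes an adaptor that binds phosphorylated UPF1 and recruits a phosphatase and decay factors. It was at 48.4, 50.0 and 51.4 FPKM in control and 58.8, 55.3 and 57.1 FPKM in RBMX total RNA. In polysomal RNA it was at 51.6, 51.7 and 60.5 FPKM in control and 58.8, 64.1 and 62.3 FPKM in RBMX cultures. The total RNA groups were separate, and in polysomal RNA only control culture 3 reached into the RBMX range. SMG5 was the only factor with an unadjusted p under 0.05 between the plasmids. Its difference in total RNA was 0.19 ± 0.051 (95% interval 0.062 to 0.32, adjusted p = 0.183, limma; exact permutation p = 0.1), against 0.18 ± 0.090 in polysomal RNA (adjusted p = 0.468). Control culture 3 was not low for SMG5, and without it the differences were 0.21 and 0.25 (adjusted p = 0.125 and 0.246).

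SMG6 (chr17:2059839-2303771, minus strand) encodes the endonuclease that cuts NMD targets near the stop codon. It was at 22.3, 20.4 and 14.4 FPKM in control and 22.4, 19.0 and 20.7 FPKM in RBMX total RNA. Its polysomal values were 23.6, 24.5 and 17.5 FPKM in control and 23.6, 28.3 and 23.5 FPKM in RBMX cultures. The groups overlapped in both fractions. The total RNA difference of SMG6, 0.14 ± 0.17, became -0.043 without control culture 3, and the polysomal one, 0.20 ± 0.15, became 0.055 (adjusted p = 0.690 and 0.599 with all cultures, limma).

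The low values of control culture 3 enter most of these differences. In its total RNA 6 of 9 and in its polysomal RNA 7 of 9 factors lay below the mean of cultures 1 and 2. UPF1 was lower by -0.58 in both fractions, SMG6 by -0.54 and -0.44, and SMG8 by -0.54 and -0.86 on the log2 scale, and 4.68% of the tested genes deviated as far down as SMG8 in polysomal RNA. UPF3A and SMG5 were not lower in either fraction. The part of this culture in the RBMX differences is given by the values without it above.

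GC content also moved with the RBMX difference over all genes. Across 13654 tested genes with a transcript in GENCODE v29, the difference had a Spearman correlation with GC content of 0.402 in total and 0.327 in polysomal RNA, as a description over genes that share the same 6 libraries. Of the NMD factors, UPF1 (60.5% GC), SMG5 (57.6%), SMG9 (55.3%) and SMG6 (55.3%) are GC-rich, and UPF3A (48.4%), SMG8 (47.8%), SMG1 (43.2%), UPF3B (41.8%) and UPF2 (40.3%) lower. Genes within 2 percentage points of UPF1 had a median difference of 0.095 in total RNA, and those near UPF2 one of -0.084. With a correction for GC content and transcript length in each library, chosen after seeing the data, the difference in total RNA went from 0.32 to 0.21 for UPF1 and from 0.19 to 0.098 for SMG5, while that of SMG8, then the largest, was 0.28 and that of UPF3B went from 0.15 to 0.20. In polysomal RNA the correction took UPF1 from 0.30 to 0.15, SMG5 from 0.18 to 0.059, SMG6 from 0.20 to 0.085 and SMG9 from 0.27 to 0.16. It took UPF3B from 0.21 to 0.30, then the largest, UPF2 from 0.00074 to 0.050 and SMG8 from 0.23 to 0.22. All 9 stayed above 0 in polysomal RNA, with a median of 0.15. None of the 9 passed the threshold after the correction, and the part of GC content in the differences was not tested further.

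**Figure D3:**
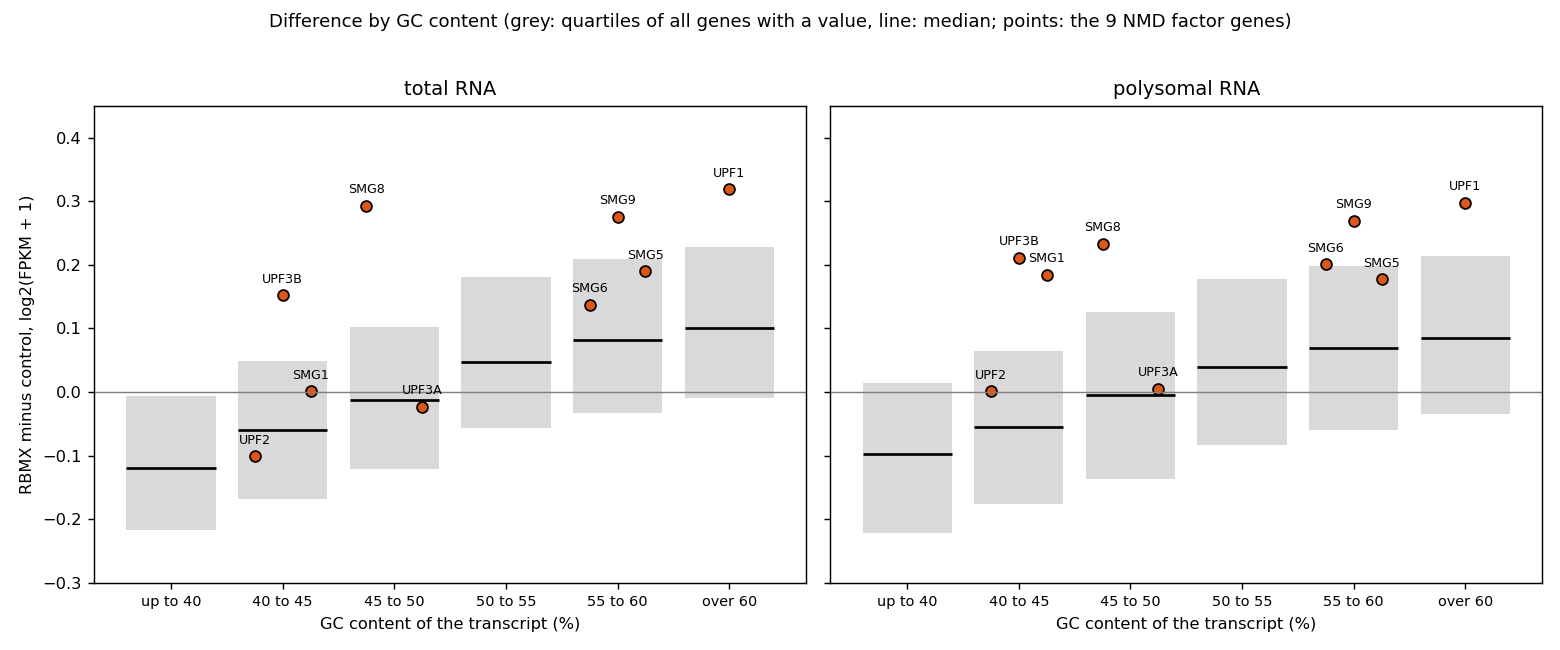
RBMX minus control difference (vertical axis, log2(FPKM + 1)) by GC content of the transcript (horizontal axis, percent, in 6 bins), in total and polysomal RNA. Grey boxes span the quartiles of all genes with a value and lines mark their medians, which climb from -0.12 to 0.10 in total RNA from the lowest to the highest bin. Points are the 9 NMD factors, of which UPF1, UPF3B, SMG8 and SMG9 lie above the boxes of their bins in both panels.

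Whether overexpression acted differently on polysomal than on total RNA was tested directly as an interaction. Of the 9 factors 0 passed, against 0.0204% of all genes, and 0 had an unadjusted p under 0.05, against 0.600% of all genes. The estimates ran from -0.060 ± 0.32 for SMG8 to 0.18 ± 0.15 for SMG1, all with an adjusted p of 1.0 (limma), and that of SMG1 was 0.062 without the polysomal library of RBMX culture 2. The 95% intervals were widest for SMG8, from -0.77 to 0.65, and narrowest for UPF3A, from -0.16 to 0.22. This fit did not use the pairing of both libraries of a culture, so its SE and intervals also hold differences between cultures. With the culture as a block, 316 of 14676 genes had an unadjusted p under 0.05, against 88 without it (limma). Again 0 of the 9 factors passed.

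Polysomal against total RNA compares the mRNA loaded with ribosomes with all mRNA of the same lysate. In control cells 7 of 9 factors were above 0, with a median difference of 0.11 (all genes, 0), and without culture 3 in both fractions 8 of 9, with a median of 0.14. None passed, against 0.0818% of all genes, and none had an unadjusted p under 0.05, against 8.04%. The polysomal libraries lay above the total libraries for 1 of 9 (SMG5, 0.12 ± 0.082), against 7.63% of all genes, and below for 0, against 7.31%. Without culture 3 the difference of SMG5 was 0.069 and that of SMG1 went from 0.10 to 0.18. In RBMX cells the same 7 factors were above 0, with a median of 0.17 (all genes, -0.0011). Of the 9, 0 passed, against 1.34% of all genes, and 3 had an unadjusted p under 0.05, against 23.0% (limma). These were UPF2, with 0.24 ± 0.059 (adjusted p = 0.125, limma), UPF3B, with 0.17 ± 0.045 (adjusted p = 0.137), and SMG6, with 0.26 ± 0.098 (adjusted p = 0.197). The groups were separate upward for 4 of 9 (UPF2, UPF3B, SMG1 and SMG6), against 14.6% of all genes, and downward for 1, SMG8 with -0.14 ± 0.058, against 16.2%. Both kinds of comparison between plasmids and fractions use the same libraries and are not independent of each other.

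Within single cultures, where both libraries share a lysate, 7 of the 9 factors were mostly higher in polysomal RNA. UPF1 was higher in polysomal RNA by 0.17, 0.23 and 0.20 in control cultures 1 to 3 and by 0.11, 0.39 and 0.029 in RBMX cultures 1 to 3. UPF3B was higher by 0.16, 0.12 and 0.048 in control and by 0.15, 0.17 and 0.19 in RBMX cultures. UPF1, UPF2, UPF3B and SMG6 were thus higher in 6 of 6 cultures, where 16.0% of all genes were, and 0 of 9 were lower in 6 of 6, where 16.5% of all genes were. UPF3A, SMG1 and SMG5 were higher in 5 of 6. The exceptions were the regulators of the kinase: SMG8 was lower in 5 of 6 cultures, from -0.30 to 0.082, and SMG9 in 4 of 6, from -0.20 to 0.14. With the culture as a block, UPF1 in control cells had an unadjusted p of 0.0084 and an adjusted p of 0.178 (limma). In that fit 3085 of 14676 genes had an unadjusted p under 0.05. Again none of the 9 passed in either kind of cell.

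**Figure D4:**
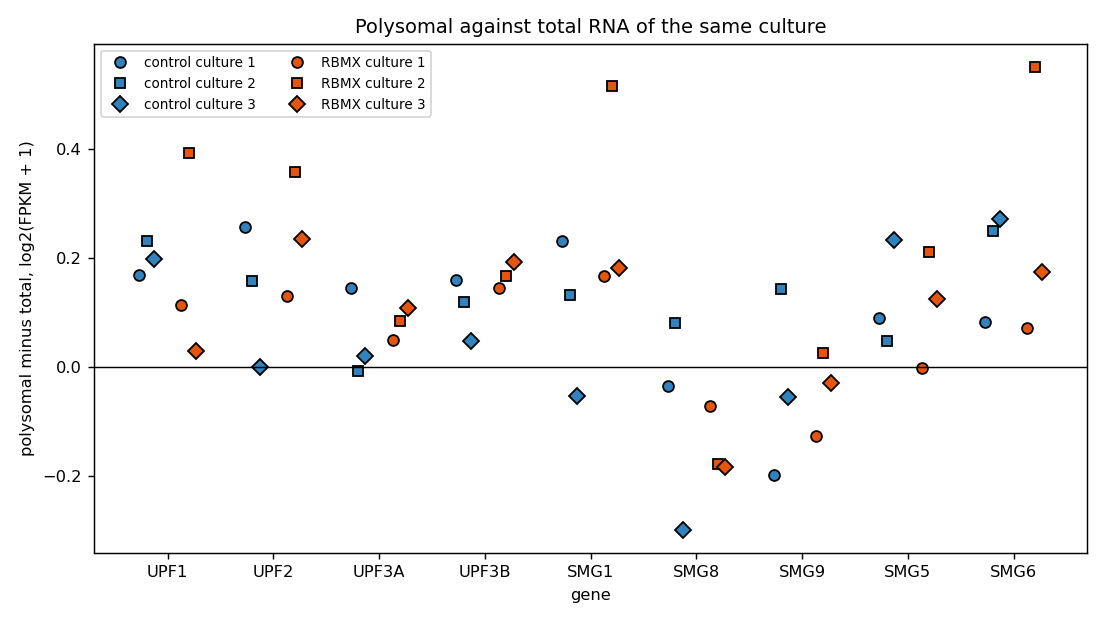
Polysomal minus total level (vertical axis, log2(FPKM + 1)) of each NMD factor in the 3 control cultures (blue) and 3 RBMX cultures (orange). All 6 points lie above 0 for UPF1, UPF2, UPF3B and SMG6, 5 of 6 lie below 0 for SMG8, and RBMX culture 2 is the highest point for UPF1, UPF2, SMG1 and SMG6.

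Transcript length moved with this comparison. Over 13654 genes the polysomal difference had a Spearman correlation with transcript length of 0.176 in control and 0.401 in RBMX cells, and with GC content of 0.371 and 0.220, again as a description across genes. SMG1 has the longest transcript of the 9, at 16115 bases, and UPF3B the shortest, at 2378 bases. With the correction for GC content and length, the difference in RBMX cells went from 0.29 to 0.10 for SMG1, from 0.26 to 0.12 for SMG6 and from 0.18 to 0.013 for UPF1, while it went from 0.17 to 0.31 for UPF3B (adjusted p = 0.0883, limma, the smallest of any factor under any setting run). Also in RBMX cells, it went from -0.043 to -0.18 for SMG9 and from 0.081 to 0.15 for UPF3A, and UPF2 stayed near its value, at 0.25. In control cells it went from 0.20 to 0.076 for UPF1, from 0.12 to 0.040 for SMG5, from 0.20 to 0.10 for SMG6, from 0.10 to 0.035 for SMG1 and from 0.11 to 0.21 for UPF3B. There UPF2 went from 0.14 to 0.19, UPF3A from 0.053 to 0.099 and SMG9 from -0.037 to -0.13.

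The genes whose pattern over the 12 libraries was most like the mean of the 9 factors were SUPT6H (Pearson r = 0.982), DROSHA (0.977) and EXOC7 (0.976), where the median over all tested genes was -0.0085. Of the 9 factors, UPF1, UPF3B and SMG6 followed that mean most closely, with r of 0.940, 0.925 and 0.935, and UPF3A least, with 0.201. The mean includes each factor itself, which raises its r, so these values cannot be set against those of genes outside it. Those most like UPF1 alone were WFS1 (0.994), PELP1 (0.989) and NAT10 (0.988). Between pairs of factors r ran from -0.35 for UPF3A with SMG9 to 0.93 for UPF1 with SMG6. These are descriptions over libraries that share cultures and fall into 4 groups, and control culture 3 has an outlying place in both fractions.

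The wider pathway was read from lists of genes by role. All differences between plasmids in these lists include control culture 3, and its part in the counts above 0 is not given. Control libraries lay far apart for some genes, in total RNA from 40.6 to 95.3 FPKM for EIF4A3 and from 79.3 to 194 FPKM for PPP2R1A. Of 8 other NMD factors 0 passed between plasmids in either fraction, with 5 above 0 in both total and polysomal RNA and medians of 0.15 and 0.20. The smallest p in this list belonged to MOV10, a helicase found with UPF1, with 0.60 ± 0.21 and 0.54 ± 0.23 in total and polysomal RNA (adjusted p = 0.229 and 0.425, limma). NBAS had -0.17 ± 0.068 in total RNA (adjusted p = 0.269), and the helicase DHX34 had 0.33 ± 0.14 in polysomal RNA (adjusted p = 0.425).

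All 10 genes of the exon junction complex list were above 0 in total RNA, with a median of 0.12, and 7 of 10 were in polysomal RNA, with a median of 0.022, and none passed. ACIN1 was at 71.8 ± 2.95 FPKM in control and 92.2 ± 9.26 FPKM in RBMX total RNA, a difference of 0.35 ± 0.086, with 0.27 ± 0.092 in polysomal RNA (adjusted p = 0.176 and 0.406, limma). ALYREF, an mRNA export adaptor, had 0.27 ± 0.077 and 0.30 ± 0.11 (adjusted p = 0.189 and 0.407).

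In the list of 7 termination, cap and tail binding genes, 0 passed between plasmids, with medians of 0.0023 in total and 0.14 in polysomal RNA. PABPC1, the cytoplasmic poly(A)-binding protein, had a difference of -0.35 ± 0.090 in total RNA, without overlap (adjusted p = 0.178, limma). NCBP2, of the nuclear cap-binding complex, had -0.20 ± 0.074 in total and -0.29 ± 0.12 in polysomal RNA (adjusted p = 0.240 and 0.425), and NCBP1, its partner, 0.17 ± 0.20 in polysomal RNA (adjusted p = 0.714). Between fractions PABPC1 was the one gene of the list to pass, in control cells, where 0.0818% of all genes passed. It fell from 177 ± 3.48 FPKM in total to 86.3 ± 5.87 FPKM in polysomal RNA, a difference of -1.03 ± 0.072 (adjusted p = 0.0265, limma). With the culture as a block its adjusted p was 0.0987. Leaving out the total RNA of control culture 3 gave adjusted p = 0.124, and it passed in 1 of 6 fits that left out 1 library. In RBMX cells it was at 140 ± 14.9 and 89.7 ± 5.12 FPKM (-0.63, adjusted p = 0.0534).

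Of 16 decapping and decay enzymes and phosphatase subunits, 13 were above 0 in total and 14 in polysomal RNA, with medians of 0.11 and 0.18, and none passed. DCP2, the decapping enzyme, went the other way, from 21.1 ± 1.41 to 16.3 ± 0.90 FPKM in total RNA, a difference of -0.35 ± 0.073, and by -0.24 ± 0.085 in polysomal RNA (adjusted p = 0.170 and 0.410, limma). CNOT7, a deadenylase, had -0.30 ± 0.10 in total RNA (adjusted p = 0.225), and DCP1A, which activates DCP2, had 0.23 ± 0.079 in polysomal RNA (adjusted p = 0.405).

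The last list holds 15 genes with transcripts known to be NMD-sensitive. In total RNA 14 of 15 were above 0 in RBMX cells, with a median of 0.17, and in polysomal RNA 8 of 15, with a median of 0.036, and none passed in either. GADD45B, a stress gene, was at 47.5 ± 6.19 FPKM in control and 71.1 ± 4.93 FPKM in RBMX total RNA, a difference of 0.58 ± 0.11, with 0.60 ± 0.17 in polysomal RNA (adjusted p = 0.170 and 0.400, limma). MAP3K14 had 0.27 ± 0.058 and 0.31 ± 0.13 (adjusted p = 0.174 and 0.425). For the difference between fractions of the RBMX effect 12 of 15 were below 0, with a median of -0.13, and 0 passed.

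Between fractions the NMD-sensitive genes were mostly below 0, with 13 of 15 below 0 in control cells (median -0.24) and 14 of 15 in RBMX cells (median -0.38). In RBMX cells 3 of 15 fell past the threshold, against 1.34% of all genes, and all 3 are non-coding host genes of small nucleolar RNAs. Of the 196 genes past the threshold in this comparison, 192 were lower in polysomal RNA. GAS5 was at 126 ± 10.0 FPKM in total and 44.6 ± 7.45 FPKM in polysomal RNA (-1.48 ± 0.13, adjusted p = 0.0212, limma). SNHG12 was at 43.1 ± 4.14 and 19.4 ± 0.98 FPKM (-1.11 ± 0.084, adjusted p = 0.0140), and ZFAS1 at 138 ± 21.3 and 41.3 ± 11.9 FPKM (-1.74 ± 0.24, adjusted p = 0.0483). In control cells the same 3 had -1.31, -0.74 and -1.19 and did not pass. Without culture 3 in both fractions GAS5 and ZFAS1 did, with adjusted p = 0.0477 and 0.0493 (limma), in a fit where 199 of 14676 genes passed. With the culture as a block the adjusted p in RBMX cells was 0.115 for GAS5 and SNHG12 and 0.150 for ZFAS1, and at most 1 of the 3 passed when 1 library was left out. Over all genes the block took the calls in RBMX cells from 196 to 4.

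**Figure D5:**
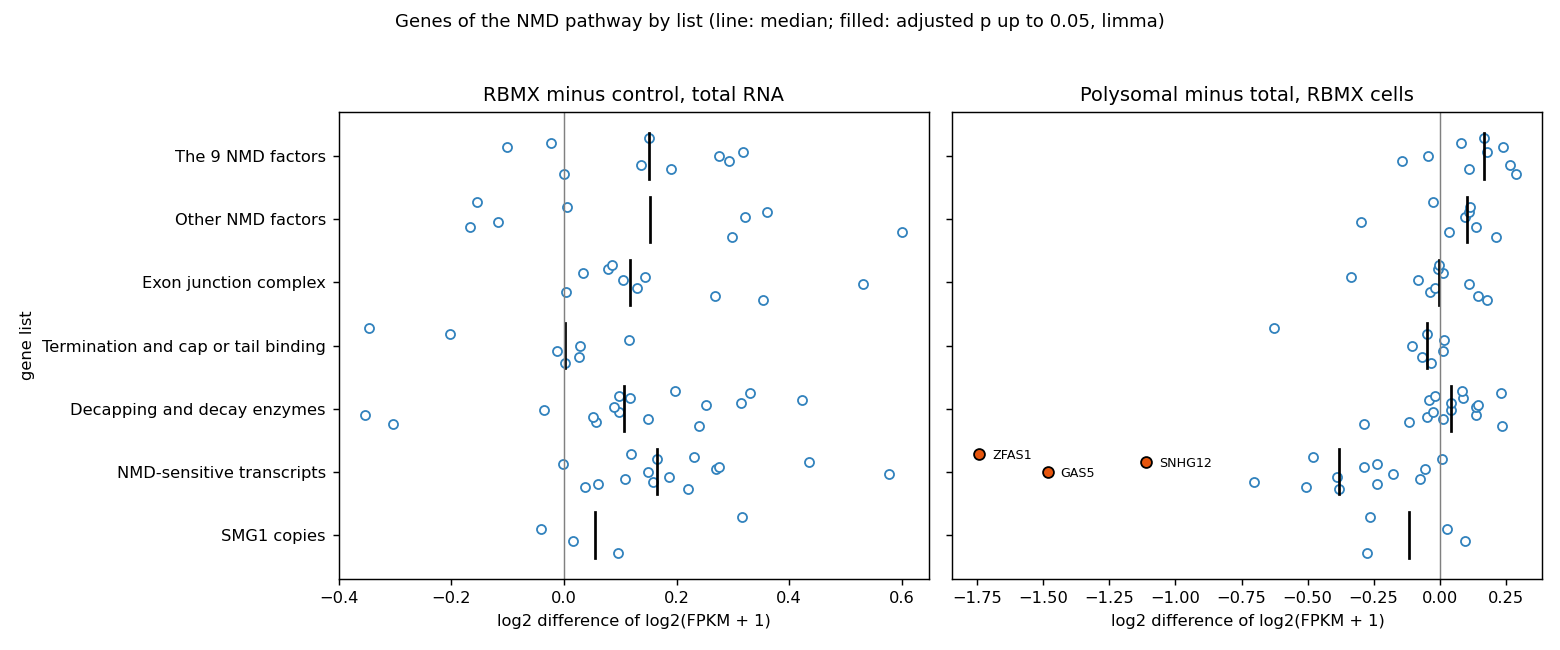
Log2 differences of log2(FPKM + 1) (horizontal axis) for the genes of 7 lists (rows), between RBMX and control cells in total RNA (left) and between polysomal and total RNA of RBMX cells (right), with a line for the median of each list. Filled points passed the adjusted threshold, which only GAS5, SNHG12 and ZFAS1 did, and the 9 NMD factors have a median of 0.15 on the left and 0.17 on the right.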

How the data were processed

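RNA-seq of 12 libraries of HEK293 cells was analysed, with groups taken from the labels. The control libraries are labelled WT in their titles and HIS in the data. That they carry the empty vector was taken from the methods of the study. The authors deposited FPKM values for 25268 gene symbols. The submitters' processing notes name CASAVA 1.8, TopHat2 2.0.13, Cufflinks 2.2.1, Cuffnorm and hg19, without their roles, while the methods of the study describe another build for its count analysis. The annotation and any scaling between libraries are not given in the sources used here. The depth per library is unknown, so no interval for counting error is given, and 0 columns were unmatched.

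FPKM values are not counts, so log2(FPKM + 1) was compared with limma 3.58.1 in R 4.3.3 (lmFit, eBayes with trend), over the 14676 genes with a mean of at least 0.5 FPKM. Benjamini-Hochberg adjustment ran over all these genes, and calls had an adjusted p up to 0.05. A fold change on this scale understates that of low genes. The 6 libraries of each comparison were fitted alone, and all 12 for the interaction. Single genes and ratios were also compared by a two-sided exact permutation test, which cannot go below 0.1 with 3 against 3. The fits were tested on simulated data.

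Total and polysomal RNA of a culture come from the same gradient, which pairs them. Over 12501 coding genes, the deviations of both libraries from their group means had correlations of 0.650, 0.751 and 0.873 in control and 0.238, 0.037 and 0.728 in RBMX cultures 1 to 3. Positions, lengths and GC content came from the longest coding transcript in GENCODE v29 (GRCh38), since the values carry no coordinates.

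The 9 factors, the other lists and the markers were chosen with earlier results of these data known. From each list the text names the genes that passed in any comparison and, for each comparison of the plasmids, the 2 genes with the smallest p. One gene of the list of other NMD factors is not reported here. Alternatives, each changing 1 choice unless said otherwise, were eBayes without trend, quantile normalization or rescaling by median ratios, a pseudocount of 0.1, a filter at 0.1 or 1 FPKM or none, all 12 libraries in one fit, a replicate block, culture 3 left out in both fractions, each library left out in turn and, added after seeing the data, a loess correction (span 0.3) for GC content and length, alone and, between fractions and for the interaction, together with the culture as a block. Plots were made with Python 3.11.15 and matplotlib 3.10.9.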

Additional observations from a re-analysis of the deposited data

How the results depend on the processing

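The 9 factors had 0 calls in each of the 5 comparisons under every alternative that was run. The smallest adjusted p (limma) was 0.125 for RBMX against control in total RNA and 0.246 in polysomal RNA. For the interaction, the difference of the RBMX effect between fractions, it was 0.905, from the GC and length correction together with the replicate block. For polysomal against total RNA it was 0.125 in control and 0.0883 in RBMX cells. Signs changed for differences near 0, and also for some larger ones when a library of control culture 3 was left out. Of these, the RBMX difference of SMG6 in total RNA went from 0.14 to -0.043, and that of SMG8 in polysomal RNA from 0.23 to -0.056. Under quantile normalization the RBMX difference of SMG1 in total RNA was -0.0061, those of UPF2 and UPF3A in polysomal RNA were -0.011 and -0.017, and the polysomal difference of SMG9 in RBMX cells was 0.0068. With control culture 3 left out in both fractions the polysomal difference of SMG8 in control cells was 0.023. With 1 library left out at a time, the RBMX difference in total RNA ran from -0.068 to 0.0082 for UPF3A, from -0.036 to 0.068 for SMG1 and from -0.043 to 0.26 for SMG6. In polysomal RNA it ran from -0.15 to 0.090 for UPF2, from -0.025 to 0.034 for UPF3A and from -0.056 to 0.39 for SMG8. The interaction of SMG8 ran from -0.35 to 0.12, and the polysomal difference in control cells from -0.26 to 0.20 for SMG8 and from -0.14 to 0.078 for SMG9. For the interaction 31 of 216 values changed sign, in 8 of 9 factors. Over all genes, leaving out the total library of RBMX culture 3 raised the calls between plasmids in total RNA from 24 to 178, and leaving out its polysomal library those in polysomal RNA from 7 to 126. Whether replicate numbers pair the plasmids cannot be told from these values. Deviations of same-numbered control and RBMX libraries correlated by -0.021 to 0.37 in total and -0.15 to 0.096 in polysomal RNA. The fractions of RBMX cultures 1 and 2, which are paired by lysate, also gave low values, 0.238 and 0.037. With the replicate block the calls over all genes went from 24 to 13 in total and from 7 to 3 in polysomal RNA, and SMG5 in total RNA had an adjusted p of 0.236. The depth behind each FPKM value is unknown, so how much of the spread is counting error cannot be told.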
